A study of Mus musculus with 20 samples.

Results

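Smooth muscle contractile genes were followed through the reprogramming of mouse embryonic fibroblasts, with and without an shRNA against Ddx10. They comprised 9 genes chosen by symbol, namely Tagln, Acta2, Actg2, Cnn1, Cnn2, Myl9, Tpm1, Tpm2 and Cald1, and 9 of the 9 were present among the 15757 genes of the table. The knockdown arm carried an shRNA that targets Ddx10, which encodes an RNA helicase of the DEAD-box family with a role in making ribosomes, and the control arm one that targets luciferase. The cells of every group, controls included, were passage 2 fibroblasts of the OG2 strain, whose transgene reports Oct4 activity with GFP, and had been infected with retroviral Oct4, Sox2, Klf4 and Myc and then kept in iCD1 medium. Each arm was sampled at days 0, 1, 3, 5 and 7 with 2 libraries per day, which gave 10 groups and 20 libraries. Levels are normalized read counts as deposited, and differences were taken after a log2(value + 1) transform, so those of genes with few reads are understated. Tagln and Acta2 had already been singled out for their fall over the control course, and the course of Tagln was known in both arms. The course is therefore given as a description with no test, and tests are given for the knockdown against the control. In those tests the calls of Tagln are no independent support, and the calls of Acta2 use the control values behind its choice.

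These genes encode the thin filament, its regulators and a myosin light chain in smooth muscle and in myofibroblasts, the contractile form of fibroblasts. Actin filaments are decorated by tropomyosin, and calponin, caldesmon and transgelin bind along them, while phosphorylation of the myosin regulatory light chain starts contraction. Many of the genes are textbook targets of serum response factor (SRF) with its coactivators of the myocardin family, and Klf4, a reprogramming factor carried by every group here, is known as a repressor of them in smooth muscle cells. Embryonic fibroblasts on plastic are known to express several of them at high levels.

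The columns summed to between 15.7 M and 21.3 M, and the smallest increment among the values placed each library's depth between 12.0 M and 23.6 M reads. Replicates correlated at r = 0.981 to 0.989 across genes, and no pair of columns was identical (0 pairs). Replicates are described as biological, without a statement that they were separate cultures, so each p-value reflects no more than how far these libraries differ. Ddx10, the targeted gene, was lower in both knockdown libraries than in both controls at each day, with log2 differences between -1.58 at day 1 and -0.62 at day 7 (SE 0.12, limma adjusted p = 8.78e-06 and 0.00446).

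The 9 genes lie at separate places on 6 chromosomes in the GENCODE M21 annotation of mm10, and each is protein coding. Acta2, the smooth muscle alpha actin gene (ENSMUSG00000035783), lies on chromosome 19 at 34241090 to 34255590 on the minus strand, and Actg2, the gamma actin gene of enteric smooth muscle (ENSMUSG00000059430), on chromosome 6 at 83512905 to 83536265 on the minus strand. Chromosome 9 holds Tagln, which encodes the actin-binding protein transgelin or SM22 (ENSMUSG00000032085, 45929619 to 45936058, minus strand), the calponin gene Cnn1 (ENSMUSG00000001349, 22099216 to 22109630, plus strand) and the tropomyosin gene Tpm1 (ENSMUSG00000032366, 67022590 to 67049406, minus strand). The more broadly expressed calponin gene Cnn2 (ENSMUSG00000004665) lies on chromosome 10 at 79988584 to 79996062, plus strand, and Myl9, which encodes a regulatory light chain of myosin (ENSMUSG00000067818), on chromosome 2 at 156775420 to 156781658, plus strand. Tpm2, the beta tropomyosin gene (ENSMUSG00000028464), lies on chromosome 4 at 43514711 to 43523765, minus strand, and the caldesmon gene Cald1 (ENSMUSG00000029761) on chromosome 6 at 34598500 to 34775473, plus strand. Per kilobase of annotated exon, Acta2 was the highest of the 9 at day 0, at 46130.0 in the knockdown and 57588 in the control, and Cnn1 the lowest, at 1233 in the knockdown and 1571 in the control. At day 7 Cnn2 was the highest on this scale, at 816 in the knockdown and 552 in the control, while Acta2 was at 354 in the knockdown and 210.4 in the control.

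Several of the genes have close relatives that could share reads. The longest annotated coding sequences of Acta2 and Actg2 were 84.4% identical over 1128 aligned bases, and that of Acta2 was 83.3% identical to the coding sequence of the cytoplasmic actin gene Actb and 82.0% to that of Actg1. Identity was 75.5% between Tpm1 and Tpm2 and 68.2% between Cnn1 and Cnn2. The authors list RSEM among their tools without its role, and how shared reads were divided is not stated in the sources used here. The actin values thus carry an uncertainty that the replicate spread does not show. This bears most on Actg2 at day 7, at 172 and 193 in the knockdown and 88.4 and 96.6 in the control, when Actb had 30201 and 30352 in the knockdown and 24308 and 25175 in the control. Tpm1 and Cald1 are also known to make smooth muscle and non-muscle forms from the same gene, which values per gene cannot separate.

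Because the 9 genes moved together and SRF is their textbook regulator, the promoter windows were searched for its site, the CArG box, read as CCNNNNNNGG with only A or T at each N. The RefSeq table of GRCm38.p6 held 8 windows for 7 of the genes, each from 250 bases before the annotated start to 50 after it, and Tagln and Actg2 were not among them. The pattern reads the same on both strands. It matched exactly in 2 of the 8 windows, those of Myl9 and Cnn2, against 1.63% of all 32851 windows. With up to 1 mismatch it matched in 5 of the 8, against 21.1% of all windows. The bases before the first annotated exon are shown for the windows with an exact match, 5′ to 3′ on the gene's strand (here plus for both), with matches of up to 1 mismatch in capitals. The Myl9 stretch is chr2:156775214-156775419 and the Cnn2 stretch chr10:79988350-79988583.
Myl9: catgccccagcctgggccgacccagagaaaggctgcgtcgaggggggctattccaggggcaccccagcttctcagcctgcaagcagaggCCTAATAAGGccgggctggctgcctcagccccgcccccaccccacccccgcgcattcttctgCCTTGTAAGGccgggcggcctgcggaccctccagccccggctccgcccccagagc
Cnn2: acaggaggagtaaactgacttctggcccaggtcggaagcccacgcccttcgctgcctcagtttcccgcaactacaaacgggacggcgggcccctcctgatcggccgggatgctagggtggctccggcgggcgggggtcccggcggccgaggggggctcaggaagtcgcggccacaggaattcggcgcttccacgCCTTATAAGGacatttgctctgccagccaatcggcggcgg
In Myl9 the exact match CCTAATAAGG began at position -161 from the RefSeq start and CCTTGTAAGG, with 1 mismatch, at -99. In Cnn2 the exact match CCTTATAAGG began at -56. The Acta2 window held CCCTATATGG at -84 and CCTTGTTTGG at -34, each with 1 mismatch, inside bases that GENCODE annotates as an Acta2 exon. The Tpm1 window held CCATATATAG at -221 and CCAAAAAAGT at -80, and the upstream Cald1 window held GCTTTTTAGG at -203. Those of Cnn1 and Tpm2 and the downstream Cald1 window held no such match. A match describes letters in a window and does not show that the factor binds there.

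All 9 genes fell over the course in both arms, most of the way between days 0 and 3. In bulk RNA, fewer cells of a kind and less RNA per cell cannot be told apart, here and below. Together the 9 genes made up 1.501% of the summed reads in the knockdown and 1.68% in the control at day 0, and 0.0960% in the knockdown and 0.0744% in the control at day 7. The median log2 step was -2.80 in the knockdown and -2.58 in the control from day 0 to day 1, and -2.30 in the knockdown and -2.84 in the control from day 1 to day 3. From day 3 to day 5 it was -0.62 in the knockdown and -0.92 in the control, and from day 5 to day 7 -0.15 in the knockdown and -0.21 in the control. Taken over all 15757 genes, the change between days 0 and 7 had a median of 0.08 in the knockdown and 0.09 in the control on this scale, -0.09 in the knockdown and -0.08 in the control after quantile scaling, and 0.44 in the knockdown and 0.51 in the control with equal totals. Each of the 9 genes fell by at least 2.89 on the log2 scale in the knockdown and 3.05 in the control.

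Some of the genes were nearly lost and others kept part of their level. Tagln had 43159 and 45323 normalized reads in the knockdown at day 0, and 57182 and 53569 in the control. At day 1 its level was 12.2% of day 0 in the knockdown and 10.6% in the control, at day 3 0.866% in the knockdown and 0.454% in the control, at day 5 0.461% in the knockdown and 0.165% in the control, and at day 7 0.450% in the knockdown and 0.160% in the control. Tagln thus changed little between days 5 and 7 in either arm. Acta2 had 97673 and 104930.0 reads in the knockdown libraries of day 0, against 129684 and 123243 in the control. It was at 13.2% of that in the knockdown and 12.8% in the control at day 1 and at 0.768% in the knockdown and 0.365% in the control at day 7. Actg2 followed, with 2.07% of its day 0 level left in the knockdown at day 7 and 0.909% in the control, and Myl9 had 1.12% left in the knockdown and 0.427% in the control.

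Cnn1, known as a marker of differentiated smooth muscle, was nearly lost. It stood at 3389 and 3356 in the knockdown and 4299 and 4299.6 in the control at day 0, and at day 7 at 15.5 and 6.51 in the knockdown and 8.94 and 1.81 in the control. Among all 15757 genes its log2 change to day 7 was the largest fall in both arms (rank 1), with Tagln at rank 2 in the knockdown and 3 in the control, and Acta2 at rank 10 in the knockdown and 7 in the control. Ranks of Myl9 were 18 in the knockdown and 10 in the control, and those of Actg2 were 39 in the knockdown and 20 in the control.

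Cnn2, Tpm1, Tpm2 and Cald1, which non-muscle cells are known to use as well, kept more of their level. At day 7 Cald1 had 13.5% of its day 0 level in the knockdown and 12.0% in the control, and Cnn2 had 10.3% in the knockdown and 5.75% in the control. Tpm1 had 7.38% of its day 0 level in the knockdown and 5.02% in the control, and Tpm2 had 3.33% in the knockdown and 1.97% in the control. Across the 10 group means on the log2 scale, the 36 pairs of the 9 genes correlated at r = 0.964 to 0.999, with a median of 0.991. These points share their libraries and the common fall, and the value is a description.

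**Figure D1:**
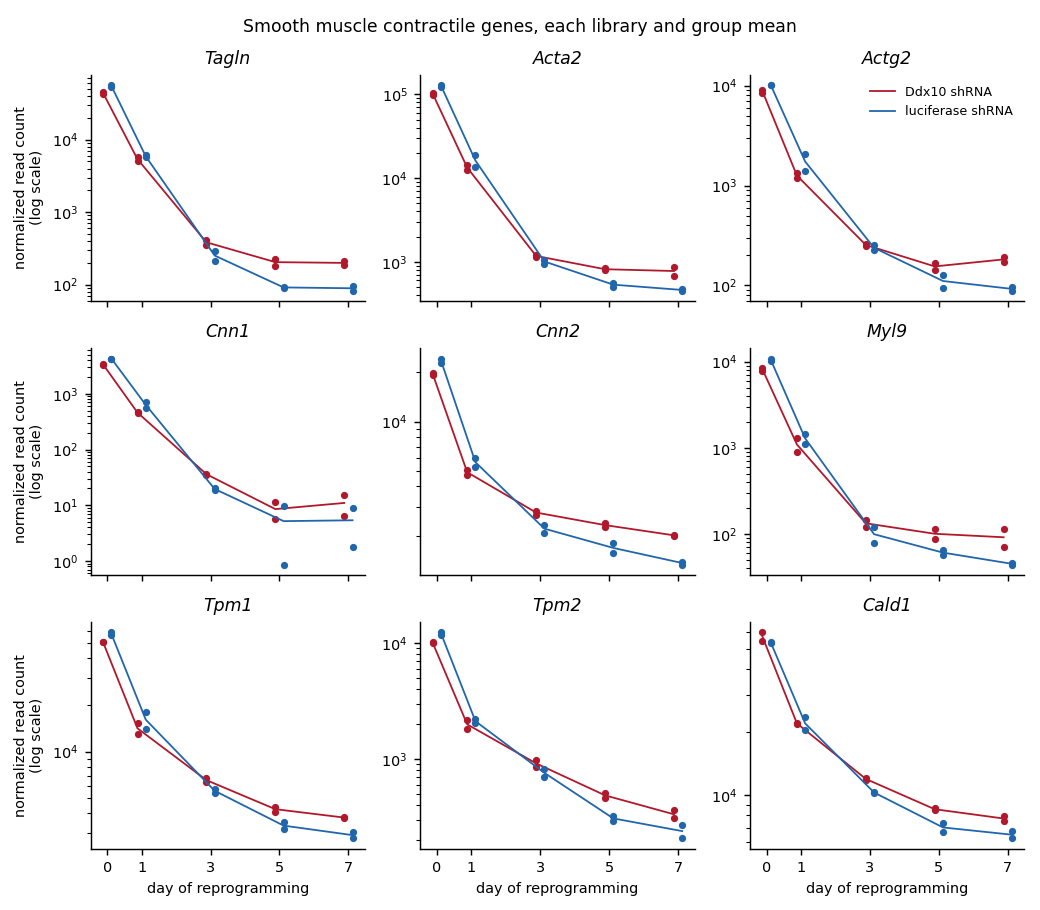
Normalized read counts (log scale) of the 9 genes by day of reprogramming, with a point for each library and a line through the group means, Ddx10 shRNA in red and luciferase shRNA in blue. The red points lie at or below the blue at days 0 and 1 for most genes and above them from day 3 or 5, with Tagln at 187 and 211 in the knockdown and 95.9 and 81.9 in the control at day 7.

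At day 0, most of the contractile genes stood slightly lower in the knockdown, without passing the test. The actin, transgelin, calponin, light chain and tropomyosin genes were lower in both knockdown libraries than in both controls (8 of 9), and Cald1 was higher in both (60096 and 54355 in the knockdown, 53316 and 54164 in the control). Over all genes, 27.5% lay below both controls and 22.8% above both. The log2 differences of the 9 ranged from -0.37 (Myl9, SE 0.24) to 0.09 (Cald1, SE 0.07), with a median of -0.27, against -0.02 over all genes. In the limma fit 0 of 9 passed (0 higher, 0 lower), where 2.49% of all genes passed as higher and 0.812% as lower. Of all genes called at day 0, 75.4% were higher, and 89.5% were with equal totals. Without adjustment 3 were lower at p under 0.05, and Cnn2 came nearest to a call (log2 -0.27, SE 0.08, limma adjusted p = 0.0746). Counts at an unadjusted p, here and below, stand without the share of all genes, so they are no result about a list.

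At day 1 the arms overlapped for most of the genes. Actg2, Cnn1 and Cnn2 were lower in both knockdown libraries than in both controls (3 of 9, against 18.1% of all genes), and the other 6 overlapped. Actg2 stood at 1324 and 1196 in the knockdown and 2087 and 1392 in the control, a log2 difference of -0.44 (SE 0.16, limma adjusted p = 0.263). Control replicate 1 was the higher control library for each of the 9 genes on that day, with Acta2 at 18850.5 in it and 13452 in the other, while the knockdown libraries had 14282 and 12422. In the limma fit 0 of 9 passed (0.0254% of all genes were called higher and 0.121% lower, so that 17.4% of calls were higher, and 31.2% with equal totals), and 2 were lower at an unadjusted p under 0.05. Without 1 library, the log2 difference ran from -0.73 to -0.15 for Actg2, -0.50 to -0.01 for Acta2 and -0.36 to -6.5e-05 for Tpm1.

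From day 3 the differences of all 9 genes were above 0, though few passed at first. At day 3 both knockdown libraries were above both controls for 8 of 9 genes, against 28.7% of all genes, and the log2 differences ranged from 0.10 (Actg2) to 0.85 (Cnn1). Tagln stood at 418 and 349 in the knockdown, against 291 and 212 in the control, and was higher by log2 0.62 (SE 0.14, limma adjusted p = 0.0208). Cnn2 stood at 2844 and 2694 in the knockdown, against 2332 and 2080.0 in the control, and was higher by log2 0.33 (SE 0.08, limma adjusted p = 0.0308). These were the 2 of 9 that passed, where 2.51% of all genes passed as higher and 2.25% as lower. The course of Tagln was known beforehand, so its call is no independent support. Both calls were lost without control replicate 2 of day 3 (limma adjusted p = 0.225 for Tagln and 0.252 for Cnn2), without knockdown replicate 1 (0.199 and 0.211) or without knockdown replicate 2 (0.05 and 0.0986), which left 0 of 9.

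At day 5 Tagln, Acta2, Cnn2, Tpm1, Tpm2 and Cald1 passed as higher in the knockdown (6 of 9, with 5.83% of all genes called higher and 2.90% lower). Tagln, with 183 and 225 reads in the knockdown, against 89.0 and 93.6 in the control, differed by 1.14 (SE 0.14, limma adjusted p = 0.000123). Both knockdown libraries were above both controls, and the fitted fold was 2.21. Here too the course of Tagln was known beforehand, so its call is no independent support. Acta2 stood at 792 and 843 in the knockdown and 504 and 566 in the control (log2 0.61, SE 0.14, limma adjusted p = 0.0116). Cnn2 stood at 2252 and 2387 in the knockdown and 1572 and 1789.5 in the control (log2 0.47, SE 0.08, limma adjusted p = 0.00193). The tropomyosins, which lie in the groove of the actin filament and gate its use by myosin, were higher too, with Tpm2 at 516 and 459 in the knockdown and 294 and 323 in the control (log2 0.66, limma adjusted p = 0.00461) and Tpm1 at log2 0.35 (limma adjusted p = 0.0415). Cald1 differed by 0.29 (SE 0.07, limma adjusted p = 0.0201). Leaving out 1 library at a time, the Tpm1 call was lost in most fits (log2 0.28 to 0.43). Actg2 (log2 0.49, limma adjusted p = 0.0751) and Myl9 (0.71, limma adjusted p = 0.0850) did not pass, although both knockdown libraries were above both controls, as for 8 of the 9 genes and for 27.1% of all genes. The count was 2 without control replicate 1 of day 5, 2 without knockdown replicate 1 and 3 without knockdown replicate 2. Tagln and Cnn2 passed in each of the 20 fits that left out a library, with limma adjusted p up to 0.00404 and 0.0466.

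At day 7 each gene except Cnn1 passed as higher in the knockdown (8 of 9, with 4.65% of all genes called higher and 1.52% lower). Tagln, at 187 and 211 in the knockdown and 95.9 and 81.9 in the control, differed by 1.16 (SE 0.14, limma adjusted p = 0.000191). Its course in both arms was known beforehand, so this call is no independent support. Actg2 stood at 172 and 193 in the knockdown, against 88.4 and 96.6 in the control (log2 0.97, SE 0.16, limma adjusted p = 0.00208), and Acta2 at 679 and 877 in the knockdown, against 473 and 451 in the control (log2 0.74, SE 0.14, limma adjusted p = 0.00480). Both smooth muscle actin genes were thus higher in each knockdown library than in each control. The same held for 8 of the 9 genes and for 28.6% of all genes. Actb, whose reads the actin genes could share, was higher in each knockdown library too. Its log2 difference of 0.29 did not pass (limma adjusted p = 0.0922). Whether shared reads had a part in the actin differences was not tested. Cnn2, at 1995 and 2020.1 in the knockdown and 1329 and 1386 in the control, differed by 0.56 (SE 0.08, limma adjusted p = 0.000624). Myl9, whose protein is the phosphorylated switch of myosin, stood at 69.6 and 113 in the knockdown and 45.9 and 44.1 in the control (log2 0.97, SE 0.24, limma adjusted p = 0.0262). Knockdown replicate 2 was the higher of its pair for 8 of the 9 genes. Tpm2 (log2 0.49), Tpm1 (0.38) and Cald1 (0.26) passed at limma adjusted p = 0.0359, 0.0382 and 0.0466. These calls lay near the threshold. Leaving out 1 library at a time, that of Cald1 was lost in most fits (log2 0.20 to 0.31) and that of Tpm1 in many (0.31 to 0.44). Cald1 and Tpm2 each failed in 2 of the 8 other alternatives, with limma adjusted p up to 0.0926 and 0.0844.

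For Cnn1, with the fewest reads of the 9 genes at the late days, the replicates lay far apart. Its log2 difference was 1.07 at day 7 with an SE of 0.68 (limma adjusted p = 0.468), and at day 5 control replicate 1 had 0.863 and control replicate 2 9.52. The day 7 count was 3 without knockdown replicate 2, 4 without control replicate 2 and 5 without control replicate 1. Tagln, Actg2 and Cnn2 passed in each of the 20 fits that left out a library (limma adjusted p up to 0.00576, 0.0412 and 0.0145), and Acta2 in each except that without knockdown replicate 2 of day 7 (0.0891).

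**Figure D2:**
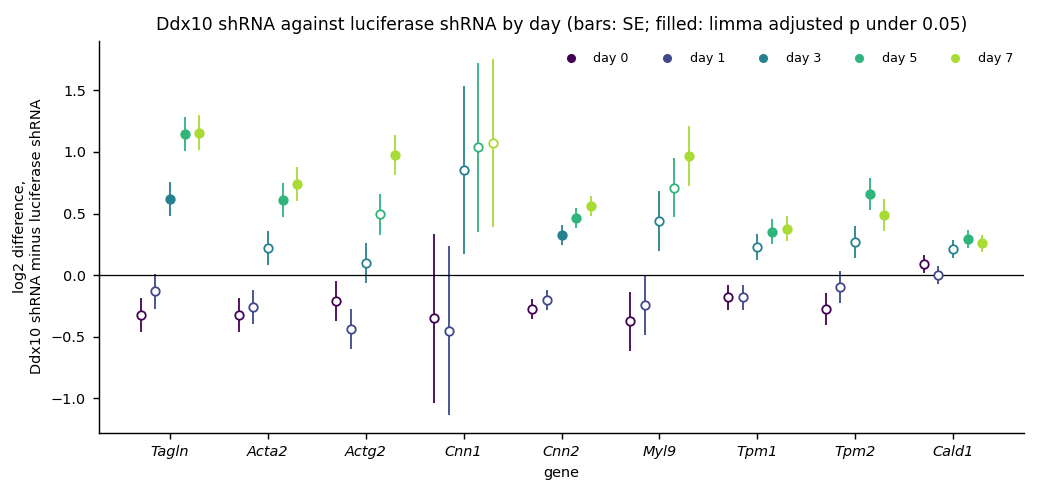
Log2 differences of the 9 genes, Ddx10 shRNA minus luciferase shRNA, with a point for each day (colour) and bars of 1 SE, filled where the limma adjusted p was under the threshold. The points of days 0 and 1 lie at or below 0 except those of Cald1, and those of days 3, 5 and 7 above it, up to 1.16 for Tagln at day 7.

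The mean difference over the 5 days, which averages negative and positive values for 8 of the 9 genes, passed for Tagln (log2 0.49, SE 0.06, limma adjusted p = 7.96e-05), Cald1 (0.17, limma adjusted p = 0.00189), Cnn2 (0.18, limma adjusted p = 0.00318), Tpm2 (0.21, limma adjusted p = 0.0205) and Acta2 (0.20, limma adjusted p = 0.0379), that is for 5 of 9, with 10.3% of all genes called higher and 7.46% lower. This count fell to 3 without knockdown replicate 1 of day 5 or knockdown replicate 2 of day 7, and it was 8 after quantile scaling. How many of all genes passed after quantile scaling is not given for this mean. Its Tagln call is no independent support, as that course was known beforehand. Leaving out 1 library at a time, the Acta2 call was lost in most fits (log2 0.15 to 0.25). The change from day 0 to day 7 was also compared between the arms. Tagln and Acta2 were singled out on this course, so their values, log2 differences of the changes of 1.48 (SE 0.20) and 1.06 (SE 0.20), are a description with no test. Among the other 7 genes the fall was smaller in the knockdown for Cnn2 (0.84, SE 0.11, limma adjusted p = 0.00109), Actg2 (1.18, SE 0.23, limma adjusted p = 0.00898), Tpm2 (0.76, limma adjusted p = 0.0238), Myl9 (1.34, limma adjusted p = 0.0314) and Tpm1 (0.56, limma adjusted p = 0.0323). These were 5 of the 7, with 3.92% of all genes called in that direction and 2.46% in the other. Of all genes called, 61.4% were in the direction of the 5, and 46.2% with equal totals, under which the 5 kept their sign. Cald1 (0.17, SE 0.10, limma adjusted p = 0.363) and Cnn1 (1.42, SE 0.97, limma adjusted p = 0.435) did not pass. The count was 2 (Actg2 and Cnn2) without replicate 1 of either arm at day 0 or without replicate 2 of either arm at day 7, and 3 without knockdown replicate 2 of day 0 or control replicate 1 of day 7.

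The knockdown at day 7 was also set beside the control at day 5. Tagln averaged 199 ± 17.4 in the knockdown at day 7 and 91.3 ± 3.24 in the control at day 5 (SD, n = 2 each), and Acta2 778 ± 140.4 in the knockdown and 535 ± 43.9 in the control. Both knockdown libraries of day 7 lay above both control libraries of day 5 for 7 of the 9 genes, as for 29.3% of all genes, and those of Cnn1 and Tpm2 overlapped. No test was run of this comparison.

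Other genes of smooth muscle, the common actomyosin apparatus, contraction signalling and SRF regulation were read beside them. Of 16 further smooth muscle genes 15 were in the table, and they also fell over the course, with a median log2 change to day 7 of -3.59 in the knockdown and -4.0 in the control. In the knockdown 14 passed as lower and 1 as higher (30.9% and 36.2% of all genes passed in these directions), and in the control 14 passed as lower and none as higher (0 of 15; 33.7% and 38.6% of all genes). Myh11, the smooth muscle myosin heavy chain gene and the most specific of them, was measured at 576 in the knockdown and 567 in the control at day 0, and at 13.8 in the knockdown and 7.73 in the control at day 7. By then 3 of the 15 were higher in the knockdown and none lower (4.65% and 1.52% of all genes passed in these directions). These were Synpo2, an actin-bundling protein gene (313 in the knockdown and 139 in the control, log2 1.15), Tgfb1i1, which encodes the focal adhesion protein Hic-5 (435 in the knockdown and 273 in the control, log2 0.67), and the LIM protein gene Fhl1 (213 in the knockdown and 163 in the control, log2 0.39). Des, the intermediate filament gene of muscle, was higher in the knockdown at days 3 (log2 1.16) and 5 (1.13). The small heat shock protein gene Hspb6 went the other way as the mean of all days (log2 -0.44, limma adjusted p = 0.00197).

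Of the 20 common actomyosin genes, few passed. All 20 had differences below 0 at day 0 with a median of -0.19, none of them called in the limma fit (0 of 20, 7 lower at an unadjusted p under 0.05), and at day 7 their median was 0.15 with 17 above 0, 3 below 0, 4 called higher and none lower. The 4 were the alpha actinin gene Actn1 (log2 0.40), the filamin gene Flna (0.38), the non-muscle myosin heavy chain gene Myh10 (0.41) and the focal adhesion gene Zyx (0.38). Of all genes, 4.65% were called higher at day 7 and 1.52% lower. The median of the 9 contractile genes at day 7 was 0.74, and that of all genes -0.0013. Over the course to day 7 the common genes had a median of -1.61 in the knockdown and -1.93 in the control, against -5.58 in the knockdown and -6.77 in the control for the contractile genes. Tagln2, the relative of Tagln used outside muscle, was lower in the knockdown as the mean of all days (log2 -0.16, SE 0.03, limma adjusted p = 0.00221). Of 12 genes of contraction signalling, among them the kinase genes Rock1 and Rock2 and the myosin phosphatase gene Ppp1r12a, none was called at day 7 (0 of 12 in the limma fit, 1 higher at an unadjusted p under 0.05), and their median was 0.03. Itpr1, Calm2, Ppp1r12a and Rock2 had the smallest p of these as the mean of all days, with log2 0.08, -0.12, 0.08 and 0.16 and limma adjusted p = 0.0826, 0.162, 0.172 and 0.232.

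Of Srf itself, no difference between the arms passed the test at any day. It stood at 2263, 1196, 973, 939.9 and 833 in the knockdown and at 2668, 1363, 1003, 845 and 737 in the control at days 0, 1, 3, 5 and 7, so that it fell over the course by 1.44 on the log2 scale in the knockdown and by 1.85 in the control. The coactivator gene Mrtfa fell by 1.87 in the knockdown and 1.97 in the control. Its relative Mrtfb had 839 in the knockdown and 840.1 in the control at day 0, and 879 in the knockdown and 814 in the control at day 7. Myocd, the smooth muscle coactivator itself, was low and uneven between replicates, with 16.1 and 102 in the knockdown and 18.4 and 17.0 in the control at day 0. Of the 17 regulators, 5 were higher in the knockdown at day 7 and none lower (4.65% and 1.52% of all genes passed in these directions). The 5 were Gata6 (145 in the knockdown and 87.8 in the control, log2 0.72), Tead4 (0.68), Foxo4 (0.52), Elk3 (0.37) and the TGF-beta receptor gene Tgfbr2 (0.27). As the mean of all days, Foxo4 (0.19, limma adjusted p = 0.000843), Elk3 (0.17, 0.000954), Tgfbr2 (0.14, 0.00340) and Gata6 (0.33, 0.0104) had the smallest p. Tgfb1, the ligand known to induce contractile genes in fibroblasts, was higher at day 5 (487 in the knockdown and 266 in the control, log2 0.88), and its difference at day 7 did not pass (log2 0.53). Klf4 stood at 11363 ± 447 in the knockdown and 11767 ± 1066 in the control at day 0, and at 12266 ± 17.4 in the knockdown and 12144 ± 909.5 in the control at day 7 (SD, n = 2 each), and these counts cannot separate the viral copy from the cells' own gene.

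**Figure D3:**
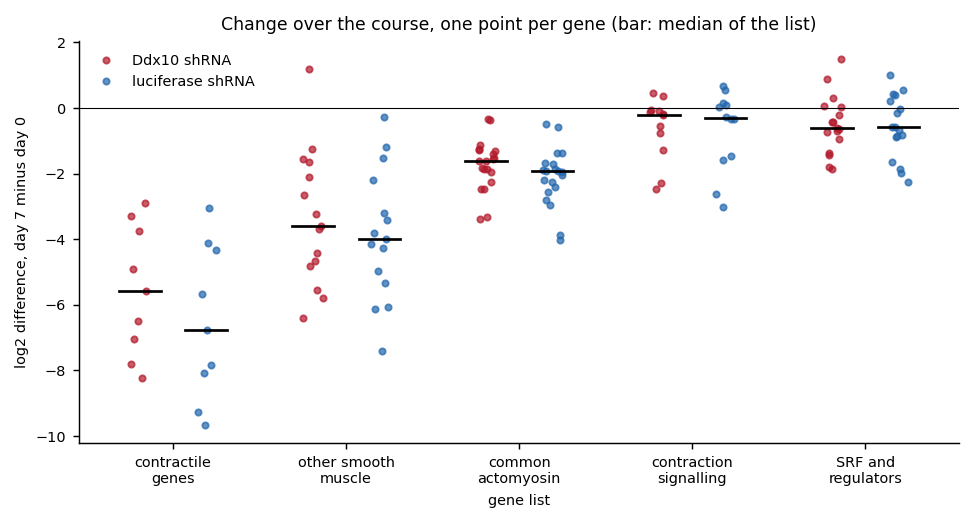
Log2 change from day 0 to day 7 for each gene of 5 lists, Ddx10 shRNA in red and luciferase shRNA in blue, with a bar at the median of the list. The contractile genes lie lowest in both arms (medians -5.58 in the knockdown and -6.77 in the control), the other smooth muscle genes next, and the signalling and regulator lists nearest 0.

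Markers of other cells moved with some of these results. The summed level of 12 fibroblast markers (12 of 12 in the table) was 570672 and 613856 in the knockdown and 714199 and 656490.0 in the control at day 0. At day 5 it was 238784 and 238901 in the knockdown and 194590.0 and 215705 in the control, and at day 7 199031 and 218082 in the knockdown, against 178666 and 188364 in the control. Of the 12, 4 passed as higher in the knockdown at day 5 and 2 at day 7, and none as lower. The share of all genes that passed as higher was 5.83% at day 5 and 4.65% at day 7. At day 1 the fibroblast sum was 400682 and 386335 in the knockdown and 364580.0 and 383501 in the control. At day 3 it was 270323 and 282049 in the knockdown and 229361 and 216410 in the control. The fibroblast sum was thus lower in the knockdown at day 0 and higher at days 1, 3, 5 and 7. At day 0, 1 of the 12 passed, the matrix gene Dcn, as higher (log2 0.53, limma adjusted p = 0.0233). Members of the list moved in opposite directions over the course. At day 7 Col1a1 was at 17.8% of day 0 in the knockdown and 9.96% in the control. Dcn was at 411% in the knockdown and 450% in the control, and Lum at 2890% in the knockdown and 2403% in the control. The contractile sum was lower in the knockdown at day 0 and higher at days 3, 5 and 7. This sum overlapped between the arms at day 1 (67550 and 61650 in the knockdown, 79023 and 64086 in the control). It was 300555 and 306570.0 in the knockdown and 359801 and 348192 in the control at day 0 and 14722 and 15467 in the knockdown, against 12058 and 11259 in the control, at day 7.

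Epithelial markers (10 of 10 in the table) were lower in the knockdown at the late days, with a sum of 13057 and 12537 in the knockdown and 23948 and 22703 in the control at day 5, and of 16511 and 15583 in the knockdown, against 26846 and 24938 in the control, at day 7. On that day 3 of the 10 passed as lower and none as higher (1.52% and 4.65% of all genes passed in these directions). The sum of 6 pericyte markers (of 7) was 8725 and 9496 in the knockdown and 12179 and 10635 in the control at day 0. At day 1 it was 3690.1 and 3477 in the knockdown and 3984 and 3567 in the control. It was thus lower at day 1 than at day 0 in each arm, and the arms overlapped at day 1. Rgs5 of this list rose by day 1, to 214% of day 0 in the knockdown and 126% in the control. The pericyte sum overlapped between the arms at day 7, with 3180.1 and 3281 in the knockdown and 3134 and 3337 in the control. Of 15 striated muscle genes 10 were in the table, summing at day 7 to 404 and 361 in the knockdown and 438 and 421 in the control. Myog and Myod1, which define skeletal muscle precursors, were not among them. Ttn was the largest part of that sum, at 257 and 232 in the knockdown and 207 and 198 in the control. Acta1 fell from 1041 at day 0 to 13.8 at day 7 in the knockdown and from 1139 to 5.74 in the control. Actc1 rose from 4.71 to 40.4 in the knockdown and from 3.32 to 83.4 in the control. Macrophage markers (10 of 10) summed to 3818 and 3936 in the knockdown and 2640.1 and 3930.4 in the control at day 0, and to 321 and 291 in the knockdown and 278 and 250.5 in the control at day 1. The macrophage sum was thus far lower by day 1 in both arms, as the contractile genes were. At day 7 the macrophage markers summed to 310.3 and 331 in the knockdown and 477 and 421 in the control, with Tyrobp and C1qa at 0 in both control libraries. Most of that sum was Cd68, at 228 and 230 in the knockdown and 391 and 331 in the control. Cd68 was then at 108% of its day 0 level in the knockdown and 169% in the control. Ptprc was at 53.3% in the knockdown and 98.5% in the control, and Lyz2 at 0.698% in the knockdown and 0.485% in the control. Endothelial markers (8 of 8) summed to 3207 and 3258 in the knockdown and 3349 and 3300.0 in the control at day 7. Most of that sum was Tek, at 2821 and 2886 in the knockdown and 3023 and 2999.8 in the control. Kdr, the VEGF receptor gene, was higher at 212 and 220.3 in the knockdown, against 101 and 90.2 in the control (log2 1.17, limma adjusted p = 0.000191). Pecam1 went the other way, with 73.7 and 66.6 in the knockdown and 146 and 129 in the control (log2 -0.96, limma adjusted p = 0.589). No endothelial marker other than Kdr passed at day 7. The part of these cell types in the results on the contractile genes was not tested.

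**Figure D4:**
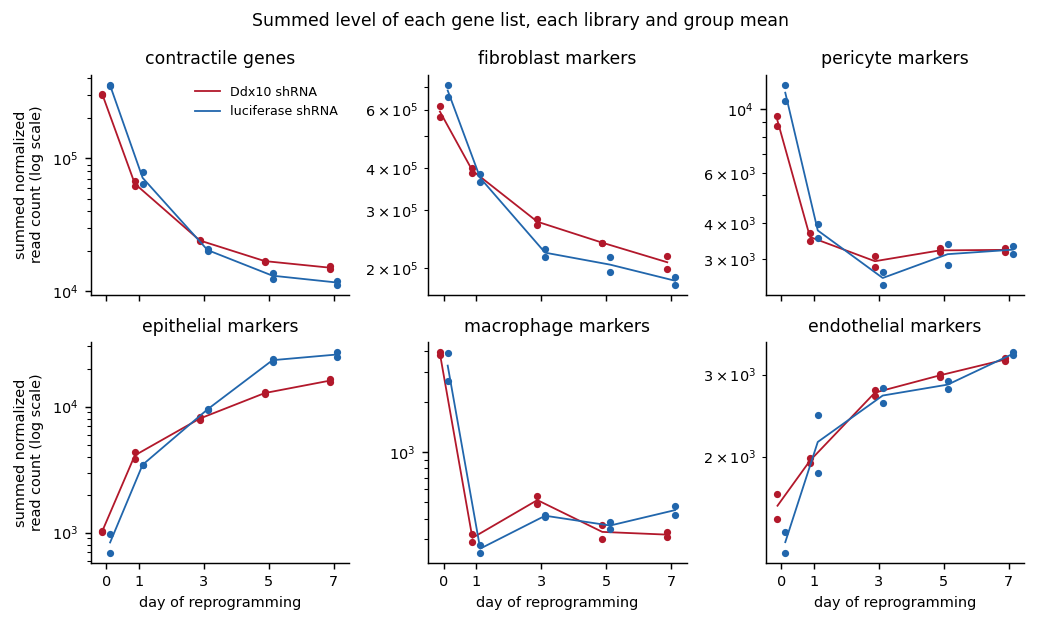
Summed normalized read counts (log scale) of the 9 contractile genes and of 5 marker lists by day, with a point for each library and a line through the group means, Ddx10 shRNA in red and luciferase shRNA in blue. Contractile and fibroblast sums are lower in the knockdown at day 0 and higher at days 3, 5 and 7. The epithelial sum at day 7 is 16511 and 15583 in the knockdown and 26846 and 24938 in the control.

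Outside the list, genes most like Tagln and Acta2 were found by Pearson's r of the 10 group means on the log2 scale among 11024 genes with a mean of at least 100. For Tagln they included C1qtnf3 (r = 0.998), Sdpr (0.998), Fads3 (0.997) and Mras (0.997). For Acta2 they included Col8a1 (r = 0.998), Lmod1 (0.998), Ddah1 (0.997) and Ptpla (0.996). Lmod1 encodes leiomodin, an actin nucleator of smooth muscle, and stood at 16.0 in the knockdown and 9.53 in the control at day 7, after 1419 in the knockdown and 1809.6 in the control at day 0. These r values describe group means that share libraries and a fall common to many genes.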

How the data were processed

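The authors deposited a signal per gene and library, in the form of normalized read counts. Per the submitters' processing notes the tools were DESeq2 1.22.0, RSEM 1.2.22, STAR 2.5.2a and Trim Galore 0.4.4 with the mm10 build, without role or order. The median ratio to the gene's geometric mean was 1.003 in all 20 columns, so the columns share 1 median scaling. Of low values (up to 20 steps), 45.4 to 63.6% lay within 0.1 of whole steps, so whole reads were not recovered and no count test was run. Every gene reached at least 7.61 in some library.

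Values were transformed to log2(value + 1) and fitted with limma 3.58.1 in R 4.3.3, with 10 group means over all 20 libraries (empirical Bayes with trend and robust options, 10 residual degrees of freedom and a median prior of 5.35). Tests are two-sided, and p-values were adjusted over 15757 genes (Benjamini-Hochberg, threshold 0.05). The fit was tested on simulated data. The 9 genes and all gene lists were chosen with earlier results of these data known. Named were all 9 genes, the 4 genes of each companion list with the smallest p for the mean of all days, and the 5 nearest patterns each of Tagln and Acta2, except some genes that are not reported here. Other genes of these lists were named after their values were seen. Samples were grouped by title. Alternatives were quantile scaling, equal totals, pseudocounts of 0.1 and 5, a filter of 10 in 2 libraries, replicate blocks, the compared libraries alone and leaving out each library.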

Additional observations from a re-analysis of the deposited data

Results flagged for a closer look

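By limma's test, the change from day 0 to day 7 differed between the arms for 5 of the 7 contractile genes other than Tagln and Acta2. On the log2 scale, knockdown minus control, it was 1.18 for Actg2, 0.84 for Cnn2, 1.34 for Myl9, 0.56 for Tpm1 and 0.76 for Tpm2. It was 1.48 for Tagln and 1.06 for Acta2, which were singled out for their fall over the control course, so these values are a description with no test. The group sizes of 2 allowed no search for outlying libraries.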

How the results depend on the processing

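The direction of the difference at days 3, 5 and 7 was the same for each of the 9 genes under quantile scaling, equal totals (chosen after seeing the data), pseudocounts of 0.1 and 5, the filter, both replicate blocks and the compared libraries alone. After quantile scaling the count of genes called was 1 at day 0 (Cald1, higher) and 8 for the mean of all days, against 0 and 5. Same-numbered libraries of the arms deviated together by only r = -0.0503 to 0.0838 across genes, so the numbers were not taken as pairs. With a replicate block nested in day these counts were 1 (Cnn2, lower) and 8, and with 1 replicate block over all days they were 0 and 5. How many of all genes passed for the mean of all days in these fits is not given. The 8 is therefore no result about the 9 genes. At day 7 the count was 7 with the replicate block, 6 with the nested block and 6 with the compared libraries alone, against 8. With the compared libraries alone 1 gene was called at day 3, against 2. The arms' difference in change for Cald1 became -0.0248 after quantile scaling. Leaving out each library gave 0 to 1 genes at day 0, 0 to 3 at day 1, 0 to 3 at day 3, 2 to 7 at day 5, 3 to 8 at day 7, 3 to 7 for the mean of all days and 4 to 7 for the difference in change, Tagln and Acta2 included. Without 1 library the log2 difference at day 1 ran from -0.0989 to 0.107 for Cald1, -0.509 to 0.0191 for Myl9 and -0.214 to 0.0257 for Tpm2, and at day 5 from -0.212 to 2.29 for Cnn1. Such a fit leaves 1 library in a group, assumed to vary like the others. The mean of all days uses all libraries, so no smaller fit was made. Of all genes, the compared libraries alone called 2 at day 0, against 521, and 0 at day 1 (748 at an unadjusted p under 0.05), against 23. They called 1725 at day 7, against 972. At day 0 quantile scaling called 304 and equal totals 876. At day 1 the count was 13 after quantile scaling, 40 and 14 with pseudocounts of 0.1 and 5, and 12 with the replicate block. Cnn1 had the fewest reads of the 9 genes at days 5 and 7. The causes were not tested.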
